A study of Mus musculus with 7 samples.

Results

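The transcripts of 9 integrin subunits (Itga2, Itga3, Itga5, Itga6, Itgav, Itgb1, Itgb4, Itgb5 and Itgb8) and of integrin-linked kinase (Ilk) were followed in the lens epithelium of mice with and without SPARC. The members were all 28 probe sets whose single gene symbol in the platform annotation is one of these 10 genes, out of 45037 probe sets and 18193 genes with a single symbol on the array. Laser capture, in which cells are lifted from a stained cryosection under the microscope, gave the epithelium of each lens, and its RNA went through 2 rounds of amplification and onto a separate Affymetrix mouse array. All animals were 28-day-old littermates on a C57Bl/6 background, kept under normal housing and with no treatment given in the labels. The SPARC-null group (KO) held 4 lenses of 3 animals, named by animal and eye as 1L, 1R, 4L and 7L, and the wild-type group (WT) held 3 lenses of 3 animals, 2L, 5L and 6L. Lenses 1L and 1R came from the same animal, so their values were averaged and n = 3 animals in each group. All animals were female by their labels except KO animal 7, a male. The sources used here do not say which part of Sparc the null allele lacks.

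Integrins are heterodimers of an alpha and a beta subunit that tie the cell to its basement membrane and to the actin or keratin cytoskeleton. The beta1 subunit pairs with alpha2, alpha3, alpha5 and alpha6, and alpha6 pairs with beta4 in hemidesmosomes. The alphav subunit pairs with beta1, beta5 and beta8, and alphav beta8 is known for releasing latent TGF-beta. ILK is a pseudokinase that sits on the cytoplasmic tail of beta1 and, with PINCH and parvin proteins, links it to actin. In the lens, alpha6 beta1 holds the epithelium to the laminins of the lens capsule. SPARC is a matricellular protein that binds the collagen of that capsule, and it has been reported to act on cells through beta1 and ILK. The comparison of KO with WT asks whether transcripts of these receptors differ when SPARC is missing.

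The arrays were first checked as a whole. Every array had a trimmed mean signal of 500, and precision is limited by how few arrays there are. Sparc, the deleted gene, gave 8.14 to 70.5 in KO against 27371 to 49972 in WT at its brightest probe set (limma adjusted p = 3.41e-06). A second bright Sparc probe set ran the same way, and a weak one did not (85.0 to 128.9 in KO, 9.25 to 118.3 in WT; difference 0.86, SE 0.57). Background was gauged from 27 probe sets for bacterial genes, which gave signals of 0.199 to 45.5, and a signal at or under 45.5 is called at or under the control here. The ratio of Gapdh signal at the 3' end to that at the 5' end, which is lower where RNA is more intact, was lowest at 3.75 (WT 2L), highest at 15.9 (KO 1R and WT 6L), and from 9.06 to 12.7 elsewhere. Of 10 markers of lens epithelium, 9 were above the control in all 7 lenses, the exception being Foxe3, above it in 3. Markers of neighbouring tissue were present too: all 9 measured markers of pigment epithelium, all 9 of retina and 8 of 9 of skeletal muscle were above the control in all 7 lenses. So were all 9 measured markers of lens fibre and all 8 of fibroblasts and stroma. Which cells gave the integrin signals was not tested. Bulk RNA cannot tell fewer cells of a type from less RNA per cell.

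None of the integrin and Ilk transcripts passed the test between KO and WT lens epithelium. Of the 28 probe sets 0 passed a limma adjusted p of 0.05, where 0.00666% of all probe sets did, and each had an adjusted p of 0.99988. At an unadjusted p under 0.05 there were 2 of 28 (1 higher and 1 lower in KO), beside 4.06% of all probe sets (2.24% higher and 1.81% lower). That count was 4 without KO animal 4, 1 without WT animal 2 and 1 with the right lens of KO animal 1 alone. On the whole array, 1011 probe sets were higher and 817 lower in KO at that p in the main setting. They numbered 954 and 808 without KO animal 4, 1448 and 1190 without WT animal 2, and 1107 and 902 with that right lens alone. The lenses of the groups were fully separated at 2 of 28, both lower in KO, beside 5.33% of all probe sets (2.76% lower). The members' median difference, KO minus WT, was -0.03 on the log2(signal + 16) scale, and that of all probe sets was -0.01. A share of 2 in 28 is close to the background in both counts.

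Signal set how much could be seen. In all 7 lenses 13 of the 28 probe sets, of 7 genes, lay above the control: those of Itga6, Itgb5, Itgb8 and Ilk, 2 each of Itgav and Itgb1, and 1 of Itga3. At these 13 the fold of KO over WT ran from 0.787 to 1.16. The 95% intervals of all 13 lay within a 2-fold change either way, the lowest bound being 0.548 (Ilk) and the highest 1.81 (Itgb1). Another 9 probe sets were above the control in 1 to 6 lenses and 6 in none. Of these 15, only 5 had an interval within a 2-fold change, and the bounds of the 15 reached 0.167 and 4.53. All 4 Itga5 probe sets, the single ones of Itga2 and Itgb4, and most of those of Itga3, Itgav and Itgb1 belong to the 15. The 5 were Itgav 1432678_at and Itgb1 1427771_x_at, 1438119_at, 1426920_x_at and 1426919_at. All but 1427771_x_at were at or under the control in all 7 lenses. The scale used understates the change of weak probe sets, so these 5 intervals do not bound a change in expression.

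**Figure D1:**
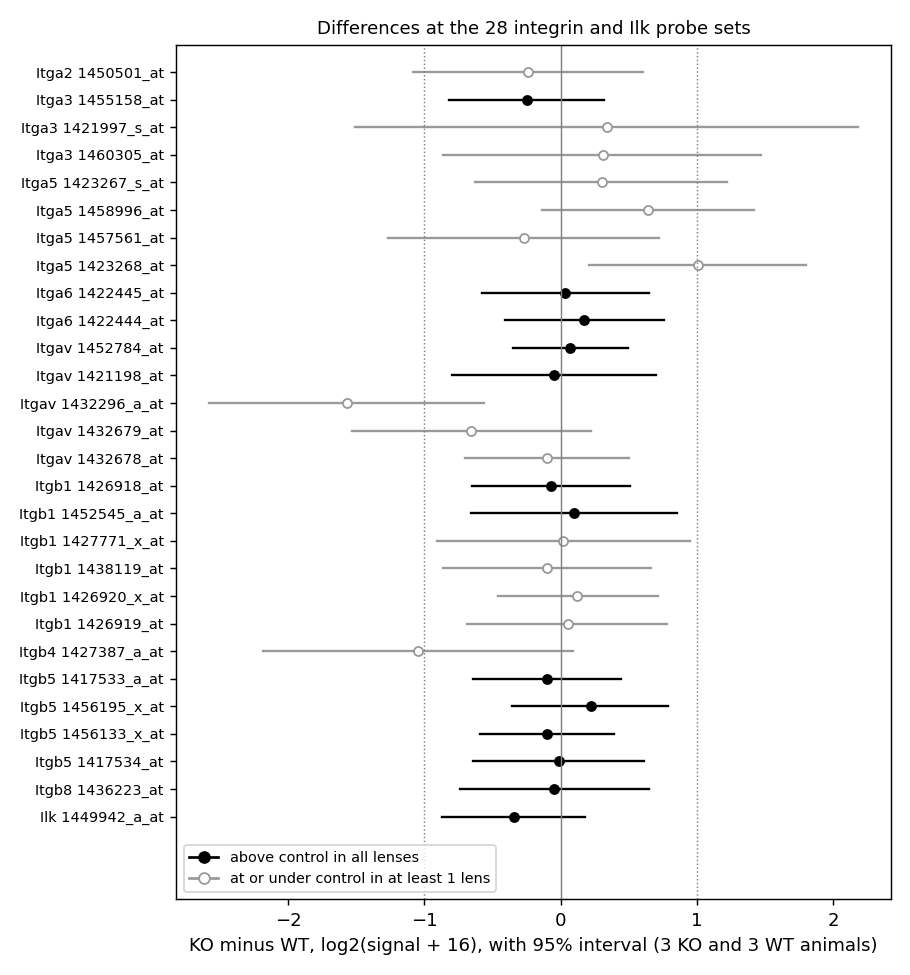
The log2 difference of KO minus WT with its 95% interval is plotted for each of the 28 probe sets (3 KO and 3 WT animals). Filled black points, above the control in all lenses, stay between -0.34 and 0.22, and open grey points, at or under it in at least 1 lens, spread from -1.57 to 1.01. Dotted lines mark a 2-fold change.

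Itga6, the laminin receptor subunit of the lens epithelium, was bright in every lens. At probe set 1422445_at the signals were 8330, 12883, 7835 and 10511 in KO lenses 1L, 1R, 4L and 7L, and 10831, 8166 and 7983 in WT lenses 2L, 5L and 6L. The groups overlapped, both as deposited and after normalization, where WT lens 2L was highest and KO lens 4L lowest. On the log2 scale the level was 13.22 ± 0.33 in KO and 13.18 ± 0.49 in WT (SD, n = 3 animals each), a difference of 0.03 (SE 0.27, interval -0.58 to 0.65). The second Itga6 probe set, 1422444_at, had signals of 5011, 8523, 4421 and 5003 in KO and 6042, 3858 and 4115 in WT lenses. There the difference was 0.17 (SE 0.26, interval -0.41 to 0.76), and lens 1R stood highest.

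Itga3, which pairs with beta1 as another laminin receptor, was well above the control at 1 of its 3 probe sets. At 1455158_at the KO signals were 3092 (1L), 1084 (1R), 2957 (4L) and 1639 (7L), and the WT signals were 2137 (2L), 2816 (5L) and 2589 (6L). The KO lenses lay on both sides of the WT lenses, 2 above all of them and 2 below. The difference of -0.25 (SE 0.26, interval -0.82 to 0.32) became 0 with the left lens of KO animal 1 alone. At 1421997_s_at the lenses 1L, 4L and 2L gave 168, 157 and 263 while the other 4 gave at most 29.5, so the groups were mixed there too. The remaining probe set, 1460305_at, was above the control only in WT lens 2L.

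Itgb1 is the common partner of alpha2, alpha3, alpha5 and alpha6 and the subunit that ILK binds. Of its 6 probe sets 2 were above the control in all lenses. At 1426918_at the signals were 343, 729, 461 and 764 in KO lenses 1L, 1R, 4L and 7L and 703, 476 and 603 in WT lenses 2L, 5L and 6L. The difference was -0.07 (SE 0.26, interval -0.65 to 0.51). At 1452545_a_at the KO signals were 314, 668, 429 and 863 and the WT signals 814, 428 and 376, a difference of 0.10 (SE 0.34, interval -0.66 to 0.85). Both probe sets put lenses 1R and 7L high and 1L lowest, all of them KO, and at both the groups overlapped. Probe set 1427771_x_at, whose suffix marks probes that may also bind other transcripts, was weak at 26.9 to 100.2 and differed by 0.02. The other 3 were at or under the control in all 7 lenses. RNA amplified from the 3' end favours probe sets near it, and the position of these probe sets was not analysed here.

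Itgav, the subunit that binds RGD-containing ligands such as vitronectin and latent TGF-beta, gave different pictures at its 5 probe sets. The bright one, 1452784_at, had signals of 12136, 14872, 18026 and 13237 in KO lenses 1L, 1R, 4L and 7L and 11224, 17041 and 12945 in WT lenses 2L, 5L and 6L. Its level was 13.83 ± 0.13 in KO and 13.76 ± 0.20 in WT (SD, n = 3), a difference of 0.07 (SE 0.19, interval -0.35 to 0.49), the narrowest interval of all 28. At 1421198_at the KO signals spanned 71.2 to 120.7 and the WT signals 86.1 to 120.2, with a difference of -0.05 (SE 0.34).

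The lowest unadjusted p of the 28 probe sets belonged to a weak Itgav probe set, 1432296_a_at. Its signals were 19.4, 7.22, 40.4 and 8.93 in KO lenses 1L, 1R, 4L and 7L, all at or under the control, and 60.2, 132.6 and 61.5 in WT lenses 2L, 5L and 6L, all above it. The difference as fitted was -1.57 (SE 0.45, limma unadjusted p = 0.00629, adjusted p = 0.99988), with no overlap between the groups. With the KO lenses set to the control's signal, the mean was 1.67-fold lower in KO, a figure that carries no sampling error. The limma interval of the fitted fold of KO over WT, which is unadjusted, ran from 0.167 to 0.679. At a limma adjusted p of 0.99988, neither a smaller decrease nor no change is excluded. The bright Itgav probe set did not share this order of lenses, and 1432679_at and 1432678_at were at or under the control in all 7 lenses (differences of -0.66 and -0.10).

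Itgb5, the partner of alphav in the vitronectin receptor alphav beta5, was bright at all 4 of its probe sets. At 1417533_a_at the signals were 11573, 10105, 12693 and 7095 in KO lenses 1L, 1R, 4L and 7L and 10875, 10209 and 9370 in WT lenses 2L, 5L and 6L. As deposited, the KO lenses 4L and 7L held the ends of the range, and after normalization WT lens 2L was highest and 7L lowest. The difference was -0.10 (SE 0.24, interval -0.64 to 0.44). The other 3 differed by 0.22 (1456195_x_at), -0.10 (1456133_x_at) and -0.01 (1417534_at), with SE of 0.22 to 0.28. Those with the suffix _x_at may also bind other transcripts. Lens 7L was the lowest KO lens at all 4.

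Itgb8, another beta partner of alphav, varied widely from lens to lens, and its groups overlapped. The signals were 567, 1770, 645 and 1445 in KO lenses 1L, 1R, 4L and 7L and 882, 1354 and 880 in WT lenses 2L, 5L and 6L. Both KO extremes, 1L and 1R, came from the same animal and differed 3.11-fold after normalization. The level was 9.96 ± 0.54 in KO and 10.01 ± 0.39 in WT (SD, n = 3), a difference of -0.05 (SE 0.31, interval -0.74 to 0.65). The KO value averages 1L and 1R and so does not show their distance.

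Ilk had the largest difference among the 13 probe sets above the control in all lenses, and it did not pass. The signals at 1449942_a_at were 1292, 909, 1836 and 1417 in KO lenses 1L, 1R, 4L and 7L and 1935, 1644 and 1892 in WT lenses 2L, 5L and 6L. Ilk lay below all WT lenses in KO lenses 1L, 1R and 7L, of which 1L and 1R are of the same animal. Lens 4L lay among the WT lenses. The level was 10.48 ± 0.38 in KO and 10.83 ± 0.11 in WT (SD, n = 3). The difference of -0.34 (SE 0.23, interval -0.87 to 0.18) is a fold of 0.787, between 0.548 and 1.13, with a limma unadjusted p of 0.171. It was -0.16 without KO animal 1, -0.54 without KO animal 4, and below 0 in all 16 alternative settings that were run.

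**Figure D2:**
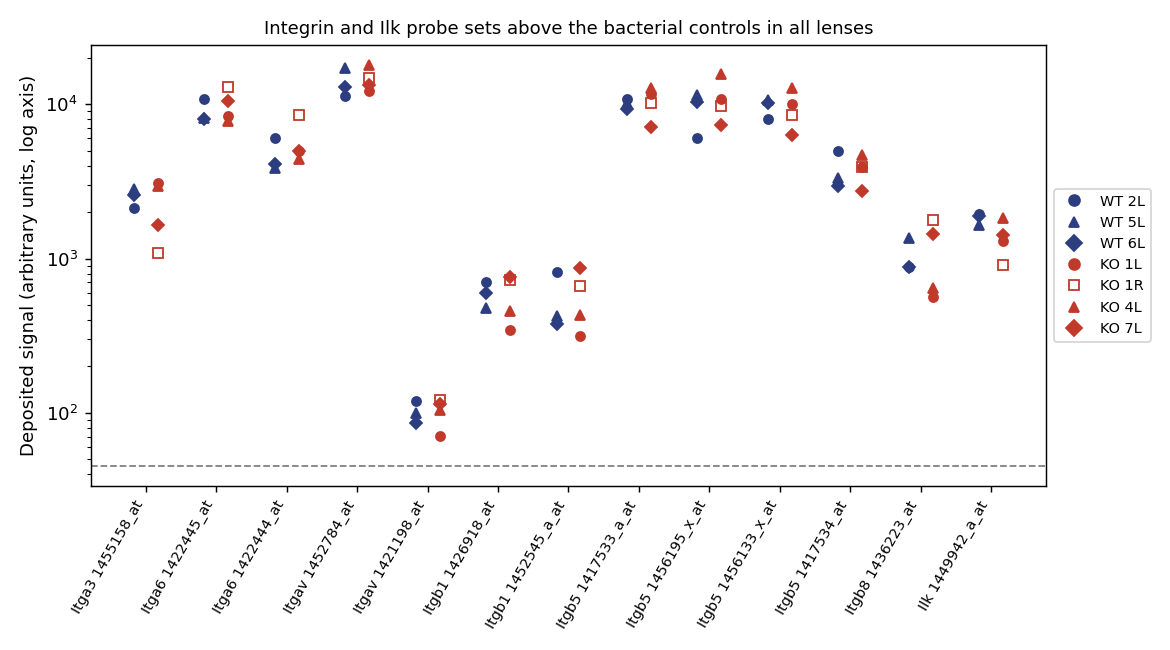
The deposited signal of each lens is plotted on a log axis for the 13 probe sets above the highest bacterial control (dashed line, 45.5) in all 7 lenses. Blue WT and red KO points overlap at every probe set, and the open square (1R) and the filled red circle (1L), both of KO animal 1, hold the ends of the range at Itga3, at Itgav 1421198_at and at Itgb8 (1770 and 567), while at Ilk they are the lowest pair.

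Itga2 and Itga5, subunits of the collagen and fibronectin receptors with beta1, stayed near the control. The single Itga2 probe set gave 36.6 to 81.0 in KO against 58.1 to 90.7 in WT (difference -0.24, SE 0.38). The brightest Itga5 probe set, 1423267_s_at, gave 49.5 to 93.7 in KO against 29.6 to 76.9 in WT (difference 0.30, SE 0.41). The other member with an unadjusted p under 0.05 was Itga5 1423268_at, with signals of 38.3, 13.4, 48.6 and 29.4 in KO lenses 1L, 1R, 4L and 7L and 3.15, 20.2 and 2.48 in WT lenses 2L, 5L and 6L. Here 3 of 4 KO lenses lay above all WT lenses, but 6 of the 7 signals were at or under the control, so no fold is given. Its fitted difference was 1.01 (limma unadjusted p = 0.0185). The remaining Itga5 probe sets, also weak, differed by 0.64 and -0.27.

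Itgb4, the hemidesmosome subunit, was weak and lower in KO lenses without passing the test. The signals were 68.3, 48.9, 67.9 and 6.56 in KO lenses 1L, 1R, 4L and 7L and 93.3, 77.2 and 86.6 in WT lenses 2L, 5L and 6L. The groups did not overlap, but only 7L stood far from the WT lenses. The difference was -1.05 (SE 0.51, limma unadjusted p = 0.0676, adjusted p = 0.99988), and without KO animal 7 it was -0.46. Col17a1, the transmembrane collagen of hemidesmosomes, also had its lowest signal in 7L, with 101.2, 225.7, 52.8 and 6.34 in KO lenses 1L, 1R, 4L and 7L and 517, 120.0 and 98.0 in WT lenses 2L, 5L and 6L (difference -1.70, SE 0.75, limma unadjusted p = 0.0477, adjusted p = 0.99988). Its groups overlapped, lens 1R was the second highest there and near the low end for Itgb4, and the WT lenses were far apart (SD 1.13, against 0.11 for Itgb4). Markers of corneal and conjunctival epithelium, a tissue with many hemidesmosomes, had low values in lens 7L as well, except Krt19, highest there (1527). Of 9 such markers 8 had lower values in KO, with a median difference of -0.93, and their summed signal ran from 2938 to 15063 in KO against 9963 to 16778 in WT. The lowest sum was that of lens 7L and the highest that of 2L, but KO lens 1R, the second lowest for Itgb4, had the second highest sum (15063). Krt12 was the largest part of the sum in every lens but 7L (530 in 7L, 11505 in 2L). None of the 9 was at or under the control in all lenses. Their part in the values of Itgb4 and Col17a1 was not tested. Lens 7L is also that of the only male, and the part of sex was not tested.

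**Figure D3:**
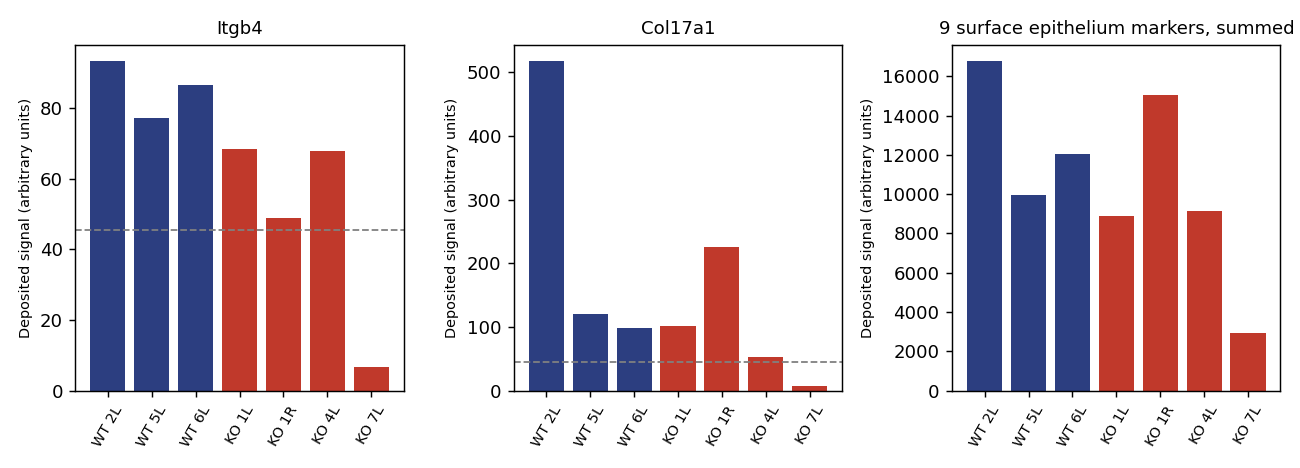
Bars give the deposited signal of Itgb4, of Col17a1 and of the 9 summed markers of corneal and conjunctival epithelium in each lens (blue WT, red KO; the dashed line is the highest bacterial control). KO lens 7L is lowest in all 3 panels, at 6.56, 6.34 and 2938, and WT lens 2L highest, at 93.3, 517 and 16778. KO lens 1R is low for Itgb4 (48.9) and second highest in the other panels (225.7 and 15063). Krt12 is the largest part of the sum in every lens but 7L.

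The 2 eyes of KO animal 1 gave a measure of how far lenses of the same genotype, sex and litter can lie apart. Lens 1L and lens 1R differed by more than the KO and WT means at 22 of 28 probe sets (78.6%), beside 68.5% of all probe sets. Among those above the control in all lenses the count was 12 of 13 (92.3%), beside 72.4%. The exception was Itgb5 1456195_x_at. Group means vary less than single lenses, so a larger distance between the eyes is the likelier outcome even without a genotype effect. These counts therefore cannot rank variation between eyes against that between genotypes. The distance between lenses 1L and 1R was 2-fold or more at 4 of these 13, namely Itga3, Itgb8 and both Itgb1 probe sets, beside 11.2% of all probe sets above the control. The Gapdh ratios of 1L and 1R were 12.7 and 15.9, and their part in these distances was not tested.

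**Figure D4:**
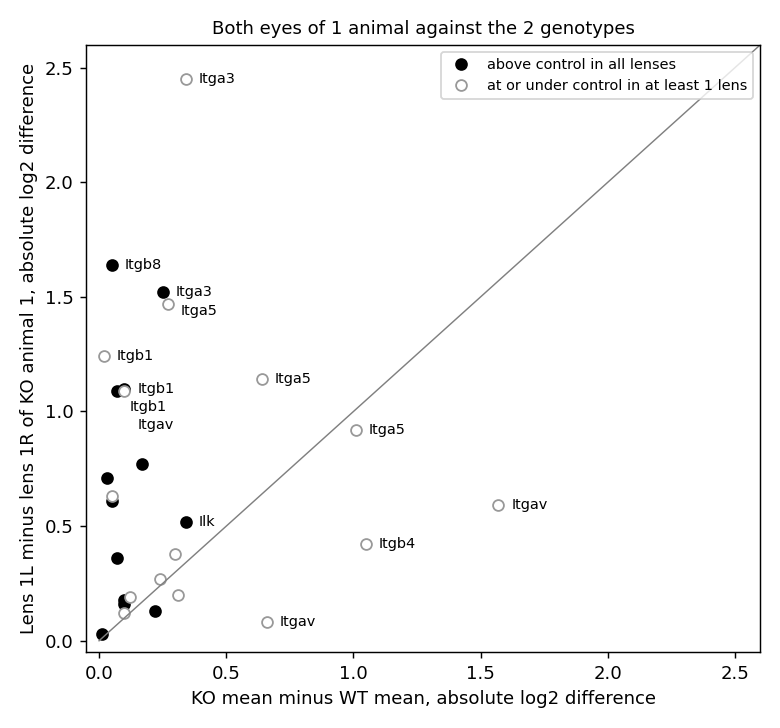
The absolute log2 difference between lenses 1L and 1R is plotted against that between the KO and WT means for the 28 probe sets. Points above the diagonal, 22 of 28 (68.5% of all probe sets), differed more between the single lenses of 1 animal than between the group means. Means vary less than single lenses, so this count cannot rank variation between eyes against that between genotypes. Filled points are above the control in all lenses.

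Correlations across the 7 lenses between the 13 probe sets above the control ranged widely. Over the 69 pairs of different genes Pearson r ran from -0.82 to 0.86 with a median of 0.07. It was -0.7 or lower in 6 pairs, 5 of them of Itga3 1455158_at with both Itga6 probe sets (-0.82 and -0.80), both Itgb1 probe sets (-0.80 and -0.76) and Itgb8 (-0.78). It was 0.7 or higher in 5 pairs, among them Itgb1 1426918_at with Itgb8 (0.73) and Itga3 with Ilk (0.71). Ilk and Itgb1 1426918_at, whose proteins bind each other, had an r of -0.17. Even between probe sets of the same gene r ran from 0 (Itgb5 1417533_a_at with 1456195_x_at) to 0.97. The 7 points include both eyes of KO animal 1 and share normalization, and lens 1R was lowest for Itga3 and Ilk. These values are descriptions. The genes whose values followed Ilk most closely were Dmac2 (r = 0.994), Bet1l (0.979) and Tcn2 (0.978), and those nearest to Itgb1 1426918_at were Cct6a (0.993), Caap1 (0.992) and Papolg (0.99). For the weak Itgav 1432296_a_at they were Agps (0.977), Mettl17 (0.977) and Aen (0.973). At the looser limit of r over 0.9, 161 of 19436 probe sets followed Ilk, 375 of 19435 Itgb1 and 71 of 19435 this Itgav probe set. The closest genes were picked from these many candidates over 7 lenses.

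The genes that work with these receptors were read from lists by role, each gene at its brightest probe set. Of 90 listed genes 79 had a probe set with a single symbol, and 0 of the 79 passed the limma adjusted p. At an unadjusted p under 0.05 there was 1 (1.27%), Col17a1, beside 4.07% of all genes. That count was 2 without KO animal 4, KO animal 7 or WT animal 5, and 3 without WT animal 6. Without KO animal 4, 954 probe sets of the whole array were higher and 808 lower in KO at that p. They numbered 1152 and 852 without KO animal 7, 848 and 701 without WT animal 5, and 1035 and 860 without WT animal 6. The median difference of the 79 genes was -0.02, with 37 higher and 42 lower in KO, and that of all genes was -0.03.

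Of 6 partners of ILK 5 had lower values in KO, none past the test. Rsu1, which binds PINCH, had signals of 1224, 1068, 1098 and 1014 in KO lenses 1L, 1R, 4L and 7L and 1835, 1276 and 1172 in WT lenses 2L, 5L and 6L. Its difference was -0.36 (SE 0.22, limma unadjusted p = 0.130), and 3 of 4 KO lenses lay below all WT lenses after normalization. Lims1, the gene of PINCH1, differed by -0.19 (SE 0.19) and had its extremes in the eyes of KO animal 1, 1481 in 1L and 3033 in 1R. Of the parvins, which bind actin, Parva differed by -0.05 (SE 0.20), Parvb by -0.60 (SE 0.45) and Parvg by -0.28 (SE 0.39), and Lims2 (PINCH2) by 0.00 (SE 0.30). The median of these 6 genes was -0.24.

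Among the 11 other alpha subunits measured the median difference was -0.02. Itgae, Itgal and Itga1 had the smallest p, with differences of -0.50, -0.38 and 0.34. For Itga1, which binds collagen IV with beta1, all 4 KO lenses (73.5 to 80.4) lay above all 3 WT lenses (47.4 to 58.3), and its limma unadjusted p was 0.349. Itgal was separated the other way after normalization (limma unadjusted p = 0.298), and such separation, in either direction, was found in 5.33% of all probe sets. None of the 4 other beta subunits was above the control in all lenses, and Itgb7, Itgb2 and Itgb6 differed by -0.87, -0.14 and 0.08. Itgb7 gave 127.9 to 157.2 in KO lens 4L and WT lenses 2L and 6L and at most 42.6 in the other 4. Itgb2, Itgam, Itgal and Itgax are leukocyte integrins, and markers of macrophages and leukocytes, a list that holds these 4 too, had summed signals of 2323 to 3568 in KO against 1414 to 2139 in WT. Csf1r was the largest part of that sum in every lens, with 868 to 1445 in KO and 361 to 886 in WT. Of 16 such markers 11 had higher values in KO and 5 lower, beside 8299 higher of all 18193 genes. Of the leukocyte integrins Itgal, above the control in all 7 lenses, differed by -0.38. Itgb2, Itgam and Itgax, above it in 5, 2 and 3 lenses, differed by -0.14, -0.08 and -0.18, and none of the 4 passed the test. The part of these cells in the integrin values was not tested.

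No gene of the cytoplasmic machinery passed either threshold. Of 14 talins, kindlins and tail regulators, Sharpin and Kank1, which restrain or anchor integrin complexes, differed by -0.41 and -0.39, and Dab2, an endocytic adaptor, by 0.29. Fermt2 (kindlin-2) was at 12.17 ± 0.31 in KO and 12.09 ± 0.19 in WT (SD, n = 3), and Tln1 (talin-1) differed by -0.27 (SE 0.34). Of 24 focal adhesion adaptors and kinases, with a median of 0.04, Gsk3b and Akt1, kinases placed downstream of ILK, differed by 0.49 (SE 0.28) and -0.28 (SE 0.20), and Fyn by 0.32 (SE 0.25). Vcl (vinculin) differed by 0.15 (SE 0.21).

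Of 7 hemidesmosome and tetraspanin genes 6 had higher values in KO and Col17a1 the lower one. Plec, the plectin that ties beta4 to keratin, differed by 0.30 (SE 0.25) and Cd151, a tetraspanin partner of alpha3 and alpha6, by 0.20 (SE 0.21). Of 13 integrin ligands other than capsule collagens and laminins, with a median of -0.12, Egfl7 differed by -0.58 (SE 0.26), Fbln5 (fibulin-5) by -0.64 (SE 0.32) and Npnt (nephronectin) by -0.45 (SE 0.24). Fbln5 was lower in 4 of 4 KO lenses (147 to 325) than in any WT lens (334 to 401), and its limma unadjusted p was 0.0721.

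**Figure D5:**
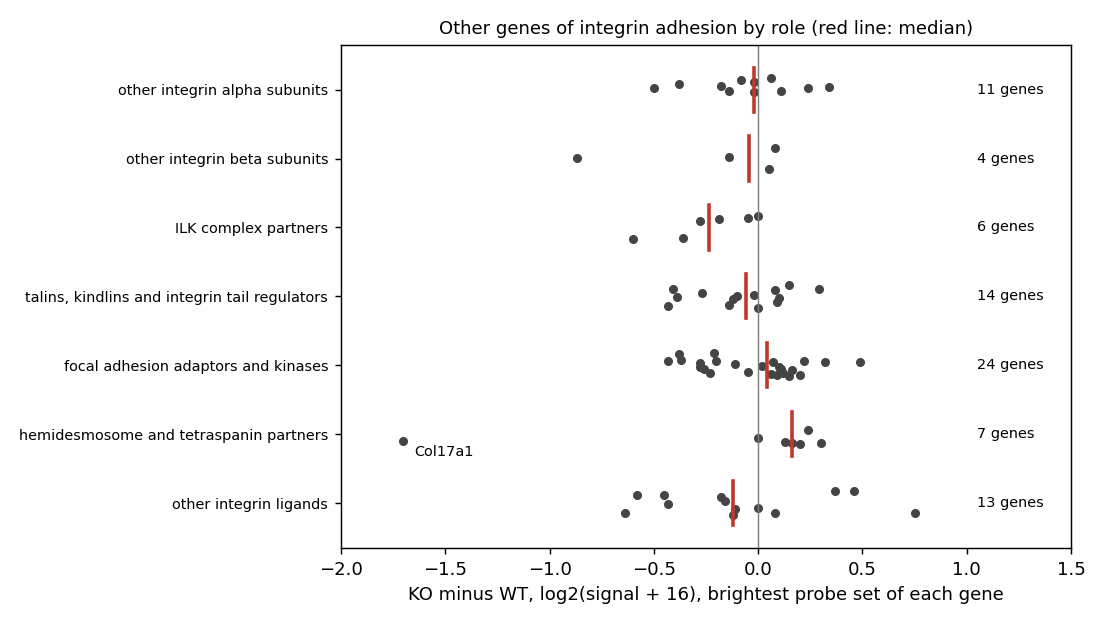
Each point is the log2 difference of KO minus WT for the brightest probe set of a gene, in lists by role, with the list's median as a red line. Col17a1, at -1.70, lies apart, and the list medians run from -0.24 (ILK complex partners) to 0.16 (hemidesmosome and tetraspanin partners).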

How the data were processed

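The deposited table holds 1 linear intensity per probe set and lens, scaled so that all arrays share a trimmed mean (2% off each end), as a check of the values showed. Amplification ran through a pair of cycles with biotin labelling, per the labels' protocols. For the summary software, background correction and genome build, nothing is given in the sources used here, and no coordinates are printed. Of 45101 probe sets, 64 controls were left out. Names came from the platform annotation (34945 probe sets with 1 symbol, 932 with several and 9160 with none).

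Values were turned into log2(signal + 16), so differences understate the change of weak probe sets, and were quantile normalized. Lenses 1L and 1R were averaged. The test of KO against WT animals was limma 3.58.1 (lmFit, eBayes with an intensity trend, two-sided) in R 4.3.3, with p adjusted over all probe sets by Benjamini-Hochberg and a threshold of 0.05. Intervals are limma's, at 95% and unadjusted. The code was tested on simulated data. Signals of single lenses are printed as deposited.

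All member probe sets are named, with the 3 smallest p of each role list, the ILK partners, the 3 closest genes to Ilk, Itgb1 and the member with the smallest p, and a few listed genes to show levels. Members and lists were chosen with earlier results of these data known. Alternatives were other units of replication, normalizations, pseudocounts, filters, variance settings and leaving out each animal.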

Additional observations from a re-analysis of the deposited data

Results flagged for a closer look

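Of the 28 integrin and Ilk probe sets, 2 had a KO lens that stood apart from the other 3 KO lenses by the gap to the nearest lens as a share of the range (Dixon's 95% limit, which chance alone passes in about 1 in 20 groups). At Itgav 1421198_at the KO lens 1L lay at 6.40 on the log2 scale and the other KO lenses at 6.92 to 7.01 (gap 0.845 of the range). At Itgav 1432679_at the KO lens 4L lay at 5.67 and the other KO lenses at 4.29 to 4.39 (gap 0.93 of the range), with a signal of 35.9 that is under the highest bacterial control. Lenses 1L and 1R are of 1 animal, so the 4 lenses are not independent. The groups of 3 were not tested. The rule was run on the 28 member probe sets alone, so the share over all probe sets is not known, and 2 of 28 is close to 1 in 20.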

How the results depend on the processing

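No integrin or Ilk probe set passed the limma adjusted p under any of the 16 alternative settings, where 3 probe sets of the whole array passed in the main setting, 2 without the intensity trend and 2 to 3 without an animal. Ilk (1449942_a_at), Itga2, Itgb4 and 6 other member probe sets kept their direction in all settings that gave a value. The members' median of -0.031 was 0.082 with lens 1R alone for KO animal 1 and -0.103 to 0.029 without an animal, where its SD over animals was 0.083. Members at an unadjusted p under 0.05 numbered 1 with array weights, 0 with the filter on low values (13 probe sets kept), 1 with lens 1R alone, and 1 to 4 without an animal. On the whole array, probe sets at that p numbered 1689 higher and 1461 lower in KO with array weights, and 1107 and 902 with lens 1R alone. They numbered 480 and 290 with the filter, which kept fewer probe sets, and 836 to 1448 and 701 to 1190 without an animal. Other adhesion genes at that p numbered 3 with median centring, 0 without the intensity trend, 2 with a pseudocount of 1, 0 with one of 64, and 1 to 3 without an animal. Probe sets of the whole array at that p numbered 801 higher and 1092 lower in KO with median centring. They numbered 1056 and 953 without the trend, 989 and 820 with a pseudocount of 1, and 1040 and 789 with one of 64. Of probe sets at that p, 55.3% were higher in KO, 42.3% with median centring and 68.9% with the signals as deposited.

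With each gene averaged over its probe sets rather than read at the brightest, the difference was 0.13 in place of -0.25 for Itga3, -0.46 in place of 0.07 for Itgav and 0.02 in place of -0.07 for Itgb1. The Itgav mean includes 1432296_a_at (-1.57, all KO lenses at or under the control) and 1432679_at (-0.66, all lenses at or under it). The 2 Itgav probe sets above the control in all lenses differed by 0.07 and -0.05. The Itga3 mean includes 2 weak probe sets, at 0.34 and 0.31.

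The other members, with main differences of -0.27 (Itga5 1457561_at) to 0.34 (Itga3 1421997_s_at), turned in at least 1 setting. With lens 1L alone for KO animal 1, differences were 0.00 (Itga3 1455158_at), -0.09 (Itga6 1422445_at), 0.08 (Itgav 1432678_at), -0.06 (Itgb1 1426919_at), -0.18 (Itgb1 1427771_x_at) and -0.09 (Itgb1 1452545_a_at). With lens 1R alone they were -0.07 (Itga3 1421997_s_at), 0.05 (Itgav 1421198_at), 0.11 (Itgb1 1426918_at) and 0.22 (Itgb8). With 7 independent lenses they were -0.03 (Itgb1 1427771_x_at) and 0.01 (Itgb5 1417534_at), with array weights 0.00 (Itgav 1452784_at), 0.03 (Itgb5 1417533_a_at) and 0.13 (Itgb5 1417534_at), with the signals as deposited 0.03 (Itgav 1421198_at) and 0.01 (Itgb5 1417534_at), and with median centring 0.00 (Itga6 1422445_at). Without an animal the ranges were -0.33 to 1.33 (Itga3 1421997_s_at), -0.23 to 0.90 (Itga3 1460305_at), 0.00 to 0.54 (Itga5 1423267_s_at), -0.72 to 0.04 (Itga5 1457561_at), -0.11 to 0.32 (Itga6 1422445_at), -0.16 to 0.05 (Itgav 1421198_at), -0.31 to 0.04 (Itgav 1432678_at), -0.04 to 0.16 (Itgav 1452784_at), -0.27 to 0.05 (Itgb1 1426918_at), -0.16 to 0.40 (Itgb1 1426919_at), -0.04 to 0.22 (Itgb1 1426920_x_at), -0.29 to 0.22 (Itgb1 1427771_x_at), -0.34 to 0.15 (Itgb1 1438119_at), -0.20 to 0.38 (Itgb1 1452545_a_at), -0.22 to 0.10 (Itgb5 1417533_a_at), -0.18 to 0.25 (Itgb5 1417534_at), -0.28 to 0.10 (Itgb5 1456133_x_at) and -0.30 to 0.23 (Itgb8). The cause was not tested.

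The fit with the animal as a random block could not be fitted, since 1 animal alone has 2 lenses and the correlation was not estimable. No paired analysis was possible because KO and WT animals share no number.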
